A study of Mus musculus with 16 samples.

Results

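The 38 genes described here encode the working parts of the lysosome, and all of them were found by symbol in a table of 54532 mouse genes. They are 10 proteases, 9 glycosidases, 7 lipid hydrolases or soluble cofactors, 6 membrane proteins, 5 subunits of the proton pump and the transcription factor Tfeb. Their RNA was counted in the hippocampus of 16 mice, 4 in each of 4 groups. WT mice had vehicle water and WT + NR mice had 6 mM nicotinamide riboside (NR), a precursor of the coenzyme NAD, in their drinking water. hTau.P301S mice had vehicle water and hTau.P301S + NR mice the same NR water. By the labels every mouse was 12 months old when treatment began, was treated for 3 months, and was tested in mazes and object tasks at 15 months before tissue was taken. The article on these mice states a younger age and, in one place, a shorter treatment. hTau.P301S mice carry human tau with a dementia mutation under the Thy1 promoter, which is active mainly in neurons. No label gives the sex of a mouse, and each library stands for 1 mouse.

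Lysosomes are acidic compartments in which cells break down proteins, sugars, lipids and material delivered by autophagy and endocytosis. A proton pump, the V-ATPase, acidifies them, the hydrolases work at that acidity, and heavily glycosylated membrane proteins such as LAMP1 line the inside of the membrane. TFEB, kept in the cytoplasm by the kinase mTORC1 when nutrients are plentiful, raises transcription of many of these genes by binding an E-box-like sequence near their starts. In brain the pathway is known from lysosomal storage diseases, many of which damage neurons, and from microglia, the resident phagocytes, which are rich in cathepsins.

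The sequence that TFEB binds was searched only near the starts of genes, so every match lies within a short distance of a start. Promoters from RefSeq (GRCm38.p6, 250 bases before to 50 after the start) were given for 32 of the 38 genes, and none was given for Asah1, Atp6v1b2, Atp6v1h, Ctsb, Ctsh or Npc1. The letters TCACGTGA, which read the same on both strands, were in 7 of the 32 (21.9%) and in 1.12% of the 27025 genes with a promoter. The shorter CACGTG, which lies inside TCACGTGA, was in 13 of 32 (40.6%) against 8.09% of all genes. The windows below are 30 bases long, read 5′ to 3′ on the strand of the gene, with TCACGTGA in capitals.
Ctsd, chr7:142387908-142387937, minus strand: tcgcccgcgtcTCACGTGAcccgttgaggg
Gla, chrX:134601182-134601211, minus strand: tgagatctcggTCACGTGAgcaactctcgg
Ctsa, chr2:164833766-164833795, plus strand: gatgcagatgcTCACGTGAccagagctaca
Atp6v0d1, chr8:105566050-105566079, minus strand: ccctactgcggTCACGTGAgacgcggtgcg
Cln3, chr7:126583340-126583369, minus strand: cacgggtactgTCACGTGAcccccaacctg
Counted from the RefSeq start, the match began at position -99 in Ctsd, -195 in Gla, -4 in Atp6v0d1, -122 in Cln3 and 4 in Ctsa. In GENCODE M21, whose starts can lie further upstream, the Ctsd, Ctsa and Cln3 windows are exonic, and those of Gla and Atp6v0d1 lie outside the gene. Ctsa and Gla each held a further match, at -13 and -228, and Mcoln1 and Atp6v1a held the remaining ones. The 7 genes with the letters and the 25 with a promoter lacking them had similar median log2 fold changes between hTau.P301S and WT mice, 0.46 and 0.53.

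Total counts ran from 16490261 to 21915362 per mouse. hTau.P301S replicate 1 stood apart from the other 15 mice. Mitochondrial genes took 14.4% of its counts against 4.48% to 7.07% in the others, 19467 genes had a count against at least 22199, and its scaling factor was 0.685 against 0.955 to 1.10. The summed level of 10 microglial markers was 4111 CPM (counts scaled to a common library size) in this mouse and 335 to 831 CPM in the other 15, and that of 10 neuronal markers was 4436 CPM against 5985 to 12505 CPM. Mapt was at 425 ± 37.4 CPM (SD, n = 4) in WT and 365 ± 124 CPM in hTau.P301S mice, and no read assignment to the human transgene was used. The Thy1 gene was counted at 528 ± 78.3 CPM in WT mice and 525 ± 71.6 CPM in WT + NR mice (SD, n = 4 each). Mice with the transgene lay above all of these, at 1135 ± 359 CPM untreated and 733 ± 77.2 CPM with NR. These counts do not separate reads of the native gene from any of Thy1 sequence in the transgene.

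All 38 genes were expressed, with at least 132 counts in every mouse, and their levels per length spanned a wide range in WT hippocampus. Levels are compared between genes as CPM per kilobase of the gene length in the file, which equalled the summed exon length in GENCODE M21 for 35 of the 38. Psap, precursor of the saposins that present sphingolipids to their hydrolases, was the most abundant at 581 CPM per kb. It was followed at a distance by the pump subunits Atp6v1b2 (114 CPM per kb) and Atp6v0d1 (106), Lamp1 (112) and the glycogen-degrading enzyme Gaa (103). Among the proteases Ctsb and Ctsd led at 87.1 and 86.8 CPM per kb, which differ by less than their spread between mice. At the other end were Ctsc (2.59), Galc (2.16), Cln3 (2.01) and Tfeb (1.98). The order of Psap above every other member held in all 4 group means.

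**Figure D1:**
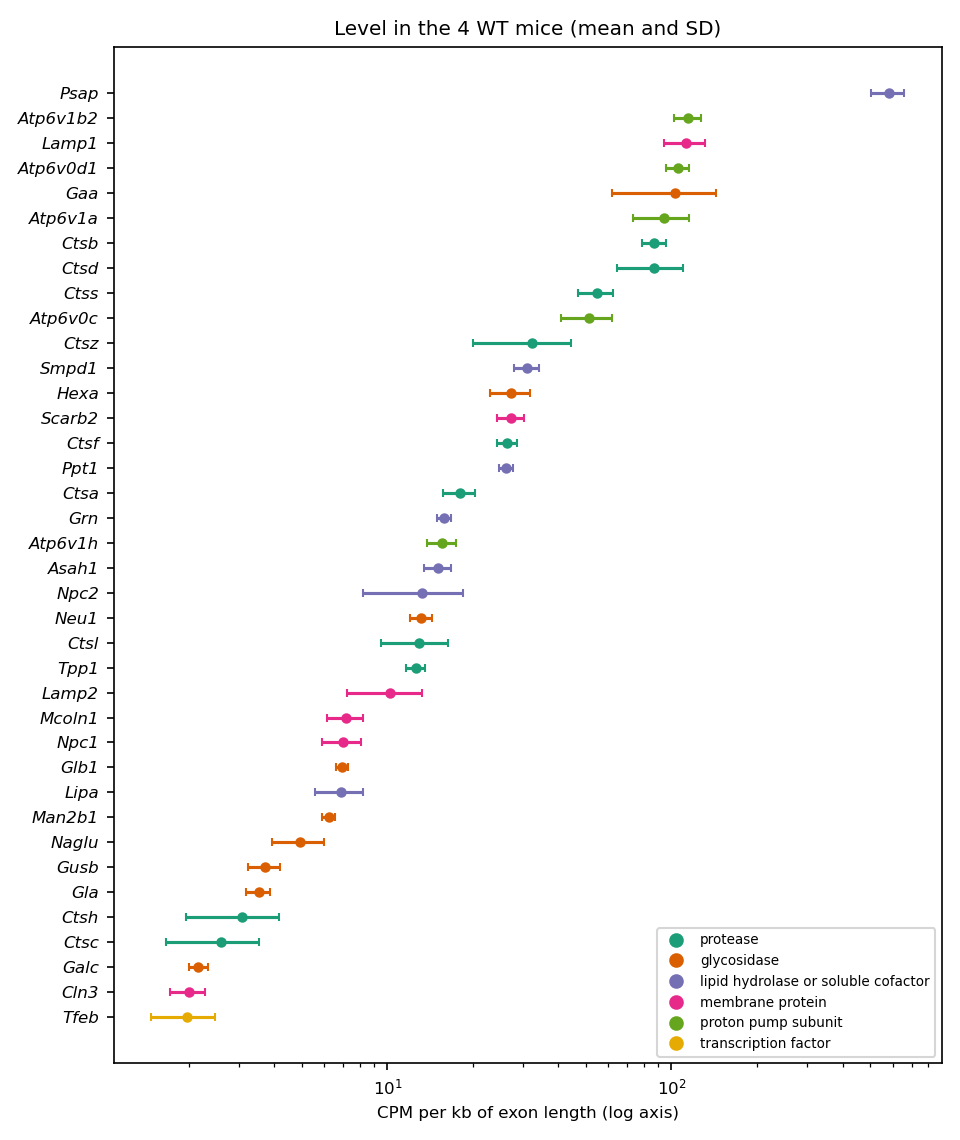
Level of each of the 38 genes in the 4 WT mice, as mean and SD of CPM per kb of exon length on a log axis, with colours for the role of the gene. Psap lies at 581 CPM per kb, and Cln3 and Tfeb lie near 2.0 CPM per kb.

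The summed level of the 38 genes was 5679 to 6924 CPM in the 4 WT mice and 6159 to 7152 CPM with NR. hTau.P301S mice had 7494 to 11284 CPM, and their NR-treated counterparts 6441 to 7028 CPM. The 4 hTau.P301S mice lay above the other 12, and replicate 1 of that group, at 11284 CPM, lay far above its 3 companions at 7494 to 8138 CPM. This separation depends on the scaling of the libraries. As a share of the unscaled total count the genes took 0.716% to 0.779% in hTau.P301S mice and 0.599% to 0.749% in WT mice, and these ranges overlap. The lead of hTau.P301S replicate 1 over its companions depends on the scaling too. Its unscaled share of 0.772% lay among theirs, which ran from 0.716% to 0.779%. In bulk tissue, more cells of a type and more RNA per cell cannot be told apart.

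**Figure D2:**
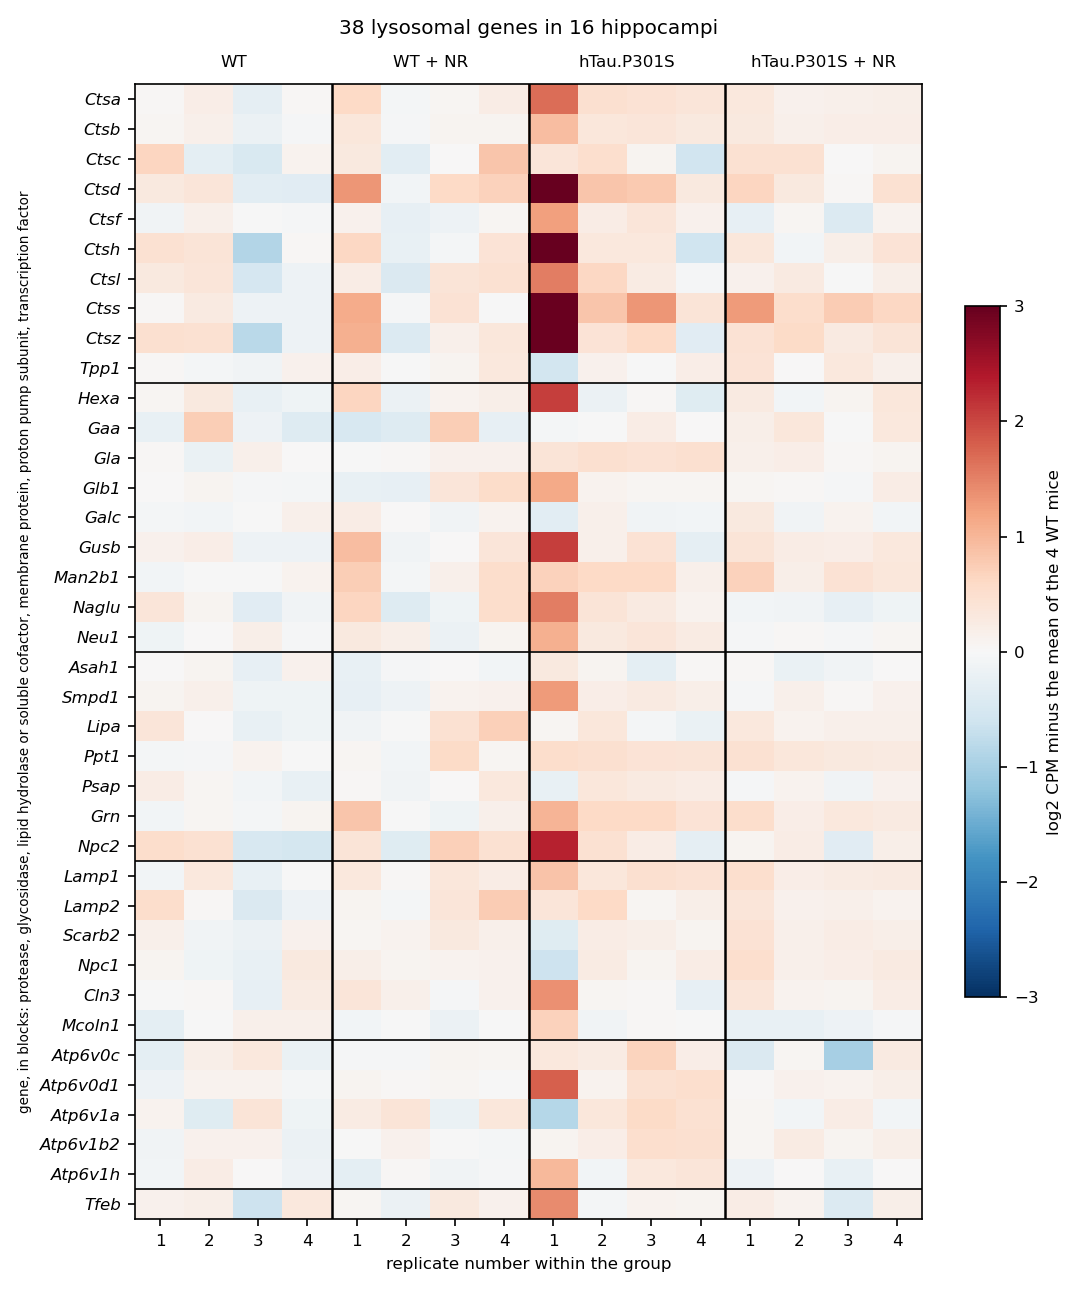
log2 CPM of the 38 genes (rows, in blocks by role) in the 16 mice (columns, 4 per group), each minus the mean of the 4 WT mice, with the colour scale saturated at 3. The column of hTau.P301S replicate 1 is the most intense, with 23 genes above and 6 below all other 15 mice, and columns 2 to 4 of that group are mostly pale red.

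The comparison of hTau.P301S with WT mice asks how the hippocampal transcriptome differs by genotype group. Breeding is not described, so an effect of mutant tau cannot be told apart from one of background or litter. None of the 38 genes was called at an adjusted p under 0.05 with a log2 fold change beyond 0.5 (edgeR quasi-likelihood test), and the lowest adjusted p among them was 0.598. Of all 16375 genes tested, 1 was called, or 0.00611%. Values leaned to one side, however. The log2 fold change was above 0 for 35 of the 38, against 52.3% of all genes, with a median of 0.48 against 0.02. At an unadjusted p under 0.05, 10 members were higher and 0 lower, against 3.41% of all genes higher and 3.73% lower. For 10 members the lowest hTau.P301S value exceeded the highest WT value (3.55% of all genes did so), and for 0 the reverse held (2.69%). Without hTau.P301S replicate 1, 12 members were higher at an unadjusted p under 0.05 (5.16% of all genes) and 0 lower (6.63%), 29 had a log2 fold change above 0 (46.6% of all genes) and the median was 0.22. The groups did not overlap for 11 members then, all higher (7.96% of all genes higher, 5.18% lower). None was called then either, with 0.0832% of all genes called. The count of 10 was 4 without WT replicate 1 or 4 and 5 without WT replicate 3.

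Among the proteases, 3 of 10 were higher in hTau.P301S mice at an unadjusted p under 0.05 and none was lower. Ctss, a cathepsin that stays active at neutral pH and is made mainly by microglia, was at 75.4, 88.4, 66.5 and 65.8 CPM in the WT mice and at 575, 132, 183 and 95.9 CPM in the hTau.P301S mice. The groups did not overlap, and replicate 1 was far above its companions. This gave a log2 fold change of 1.75 (SE 0.54, edgeR adjusted p = 0.598) and 0.88 without replicate 1 (adjusted p = 0.275). Ctsd, the main aspartic protease of lysosomes, was at 244, 256, 160 and 156 CPM in WT and 2135, 354, 344 and 242 CPM in hTau.P301S mice. Replicate 1 was far above the others, and replicate 4 lay within the WT range. Ctsd shares 34.4% of its exon bases with Gm49369, a gene on the same strand with next to no counts. Ctsl shares 32.9% of its exon bases with Gm47123 and Gm49230, which had next to no counts either. The effect of shared bases on the counts of Ctsd and Ctsl was not tested. For Ctsd the log2 fold change was 1.93 with replicate 1 (SE 0.71, edgeR adjusted p = 0.598) and 0.61 without it (adjusted p = 0.385). Ctsa, a carboxypeptidase that shields neuraminidase 1 from breakdown, was at 87.1, 96.4, 70.0 and 87.1 CPM in WT and 270, 119, 115 and 108 CPM in hTau.P301S mice. The groups were fully separated, by 1.80-fold in the means and a log2 difference of 0.41 without replicate 1 (edgeR adjusted p = 0.341). Ctsb, the abundant cysteine cathepsin, did not overlap either, at 464 to 587 CPM against 639 to 1003 CPM. The remaining proteases overlapped, and Ctsh and Ctsz, with log2 fold changes of 1.45 each, came to -0.03 and 0.18 without replicate 1.

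Among the glycosidases, Man2b1, Gla and Neu1 were higher at an unadjusted p under 0.05 and did not overlap with WT, and none of the 9 was lower. Man2b1, an alpha-mannosidase of glycoprotein breakdown, was at 47.4, 49.0, 49.5 and 53.4 CPM in WT and 80.2, 76.0, 75.8 and 55.7 CPM in hTau.P301S mice. Replicates 1 to 3 of the hTau.P301S mice were close together, and replicate 4 was only just above the highest WT mouse. In log2 terms Man2b1 was higher by 0.53 (SE 0.17, edgeR adjusted p = 0.598) and 0.47 without replicate 1. Gla, the alpha-galactosidase A that is deficient in Fabry disease, had groups with little spread, at 10.0 to 12.8 CPM in WT and 15.0 to 16.1 CPM in hTau.P301S mice. Its log2 fold change of 0.45 (SE 0.17, edgeR adjusted p = 0.598) was 0.46 without replicate 1, so that mouse did not stand out for this gene. Neu1, the sialidase that works in a complex with CTSA, was at 44.6, 49.1, 54.9 and 47.8 CPM in WT and 102, 59.7, 63.2 and 57.6 CPM in hTau.P301S mice. On the log2 scale the difference was 0.53 (SE 0.23, edgeR adjusted p = 0.598) and 0.29 without replicate 1. Hexa, Gusb, Naglu and Glb1 overlapped between the groups. Their log2 fold changes of 0.79, 0.92, 0.68 and 0.43 came to -0.18, 0.12, 0.23 and 0.07 without replicate 1. Gaa and Galc differed little, with log2 fold changes of -0.03 (SE 0.28) and -0.08 (SE 0.17), or -0.00 and -0.02 without that mouse.

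Grn and Ppt1 led the lipid hydrolases and soluble cofactors. Grn encodes progranulin, which is cut into granulins in the lysosome and whose loss causes frontotemporal dementia. It was at 51.7, 57.5, 53.0 and 57.9 CPM in WT and 112, 82.6, 82.9 and 73.0 CPM in hTau.P301S mice. It had the lowest unadjusted p of the 38 genes, 0.00548, with a log2 fold change of 0.68 (SE 0.19, edgeR adjusted p = 0.598) and 0.52 without replicate 1 (adjusted p = 0.224). Ppt1, which removes palmitate from proteins and is lost in an infantile neuronal ceroid lipofuscinosis, was at 92.6, 94.0, 104 and 94.8 CPM in WT and 138, 135, 129 and 126 CPM in hTau.P301S mice. Replicate 1 was close to its group here, and the log2 fold change was 0.46 (SE 0.15, edgeR adjusted p = 0.598) and 0.42 without it (adjusted p = 0.298). Both Grn and Ppt1 share exon bases with a gene on the opposite strand of higher count, Fam171a2 for Grn (1.96% of its exon bases) and Cap1 for Ppt1 (3.51%), and the use of strand in counting is not given in the sources used here. Psap was at 1860, 1663, 1500 and 1357 CPM in WT and 1354, 2013, 1900 and 1857 CPM in hTau.P301S mice, with replicate 1 below every WT mouse. Its log2 fold change was 0.16, or 0.26 without replicate 1. Smpd1, the acid sphingomyelinase, did not overlap between the groups, at 94.5 to 115 and 116 to 249 CPM, with a log2 fold change of 0.56 that was 0.20 without replicate 1. Asah1, Lipa and Npc2 overlapped, with log2 fold changes of 0.04, 0.04 and 0.99 that were -0.06, 0.02 and 0.08 without replicate 1.

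Of the 6 membrane proteins, Lamp1 was higher at an unadjusted p under 0.05. It was at 283, 370, 253 and 297 CPM in WT and 543, 378, 415 and 401 CPM in hTau.P301S mice, so that the groups lay close but did not overlap. The difference was 0.53 on the log2 scale (SE 0.22, edgeR adjusted p = 0.598) and 0.40 without replicate 1. Npc1, the cholesterol exporter of the lysosomal membrane, was at 78.2, 67.8, 63.6 and 90.3 CPM in WT and 48.4, 87.7, 79.0 and 86.6 CPM in hTau.P301S mice, with a log2 fold change of 0.01 (SE 0.22) and 0.16 without replicate 1. Lamp2, Scarb2, Cln3 and Mcoln1 overlapped, with log2 fold changes of 0.27, 0.04, 0.46 and 0.18. Without replicate 1 these were 0.25, 0.15, -0.06 and -0.05, so that Cln3 and Mcoln1 then lay below 0.

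All 5 pump subunits had log2 fold changes above 0, with and without replicate 1, and medians of 0.35 and 0.36. Atp6v0d1, a subunit of the membrane sector, was at 169, 203, 204 and 181 CPM in WT and 655, 202, 261 and 269 CPM in hTau.P301S mice. Replicate 2 lay within the WT range, and the log2 fold change was 0.88 (SE 0.37, edgeR adjusted p = 0.598) and 0.36 without replicate 1. Atp6v1a, which holds the catalytic site for ATP, was lowest in replicate 1. It was at 433 to 730 CPM in WT mice, at 306 CPM in hTau.P301S replicate 1 and at 711 to 827 CPM in the other 3 hTau.P301S mice. Atp6v1b2 was at 536 to 665 CPM in WT and 637 to 857 CPM in hTau.P301S mice. Tfeb itself was at 11.9, 12.3, 7.07 and 13.6 CPM in WT and 29.2, 10.4, 11.7 and 11.5 CPM in hTau.P301S mice. The value of 0.49 on the log2 scale was -0.00 without replicate 1.

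**Figure D3:**
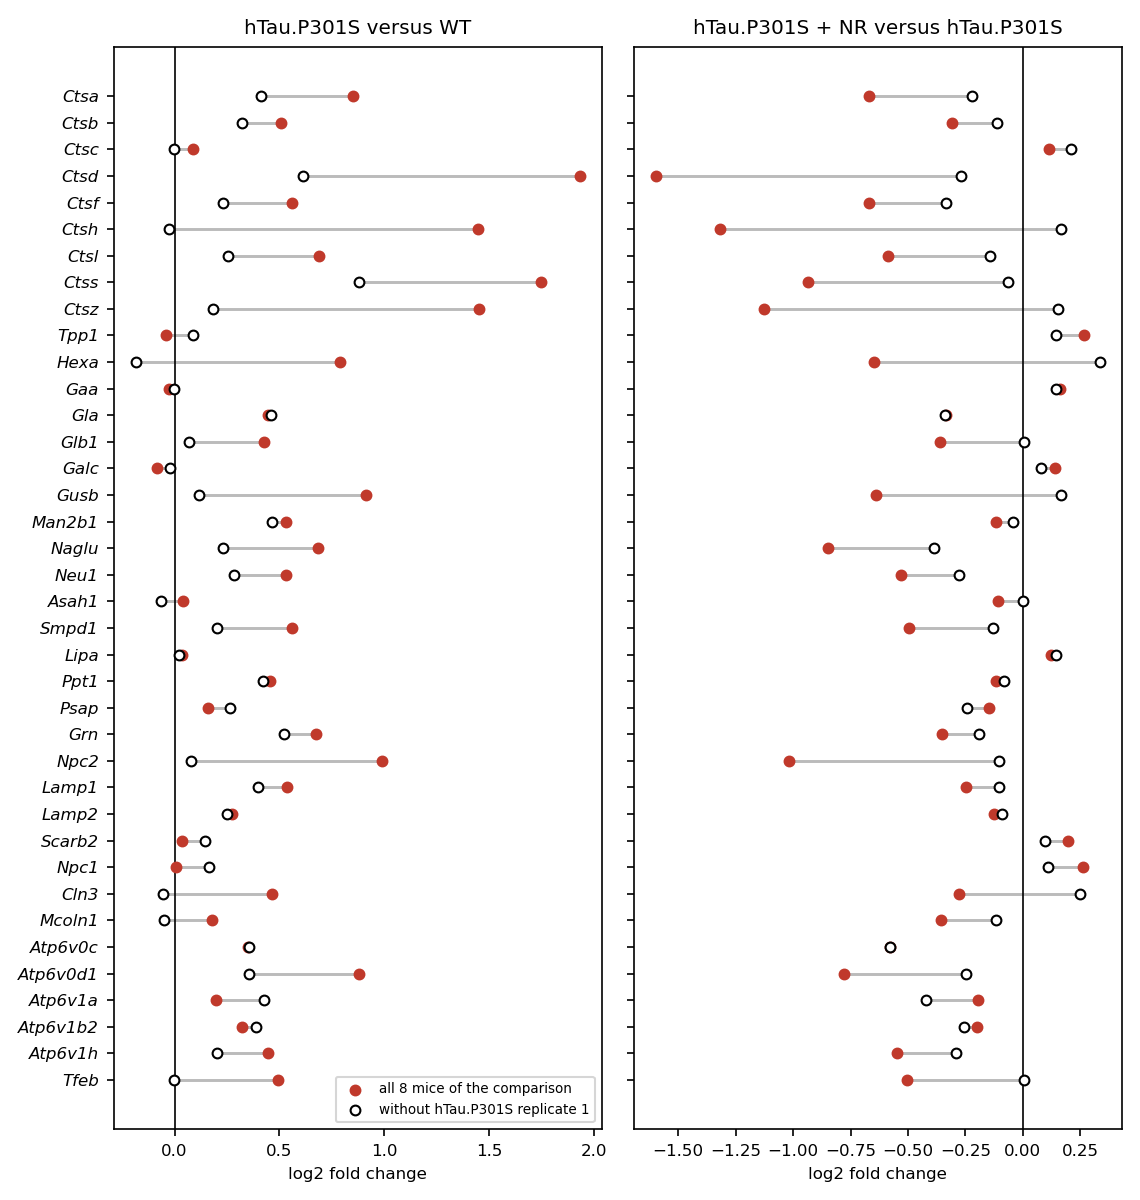
log2 fold change of the 38 genes for hTau.P301S versus WT (left) and hTau.P301S + NR versus hTau.P301S (right), with all 8 mice (filled) and without hTau.P301S replicate 1 (open). For Ctsd the left value moves from 1.93 to 0.61, whereas for Gla it stays at 0.45 and 0.46.

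DESeq2 with all 4 groups in one fit, the tool the study names, called 3 of the 38 genes higher in hTau.P301S mice, against 1.50% of all genes. They were Ctss (adjusted p = 0.0128), Ctsd (adjusted p = 0.0248) and Lamp1 (adjusted p = 0.0462). Gla passed on its adjusted p of 0.0218 but had a log2 fold change under 0.5. The same DESeq2 fit without hTau.P301S replicate 1 called 0 members (1.33% of all genes), with adjusted p-values of 0.0682 for Ctss, 0.259 for Ctsd, 0.0863 for Lamp1 and 0.0112 for Gla.

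Markers of microglia, oligodendrocytes, neurons and astrocytes were measured in the same mice. Of the 10 microglial markers, 9 had a log2 fold change above 0 in hTau.P301S mice and 6 had an unadjusted p under 0.05, or 2 without replicate 1, Trem2 and Csf1r. Their sum was 335 to 476 CPM in WT mice and 362 to 831 CPM with NR. It was 401 to 4111 CPM in hTau.P301S mice and 470 to 664 CPM with NR, and none of the 10 was at 0 in any mouse. All 8 oligodendrocyte markers were above 0 as well, 0 of them at an unadjusted p under 0.05, with sums of 2853 to 8245 CPM in WT and 7612 to 10613 CPM in hTau.P301S mice. Neuronal sums were 6135 to 11201 CPM in WT mice. They were 4436 CPM in hTau.P301S replicate 1 and 10170 to 12505 CPM in the rest of that group. Astrocyte sums were 3691 to 5290 CPM in WT and 4792 to 6576 CPM in hTau.P301S mice. The part of these markers in the values of the lysosomal genes was not tested. In hTau.P301S replicate 4 the microglial sum of 401 CPM lay within the WT range. In this mouse Ctsd (242 CPM), Ctsz (34.6) and Ctsh (8.59) also lay within the WT range, and Hexa (42.0) lay below it. The values of Grn (73.0 CPM), Ppt1 (126), Gla (16.1), Ctsa (108), Lamp1 (401), Neu1 (57.6) and Man2b1 (55.7) were above those of every WT mouse. So were those of Ctss (95.9 CPM, against at most 88.4 in WT mice), Ctsb (639) and Smpd1 (116). These are genes whose groups did not overlap, so for them every hTau.P301S mouse lay above every WT mouse. WT + NR replicate 1, with the highest microglial sum outside hTau.P301S replicate 1 at 831 CPM, had the highest Ctsd (500 CPM), Ctss (159) and Grn (97.9) of the 8 mice without the transgene. Its astrocyte sum of 6847 CPM and oligodendrocyte sum of 9206 CPM were also the highest of those 8 mice.

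**Figure D4:**
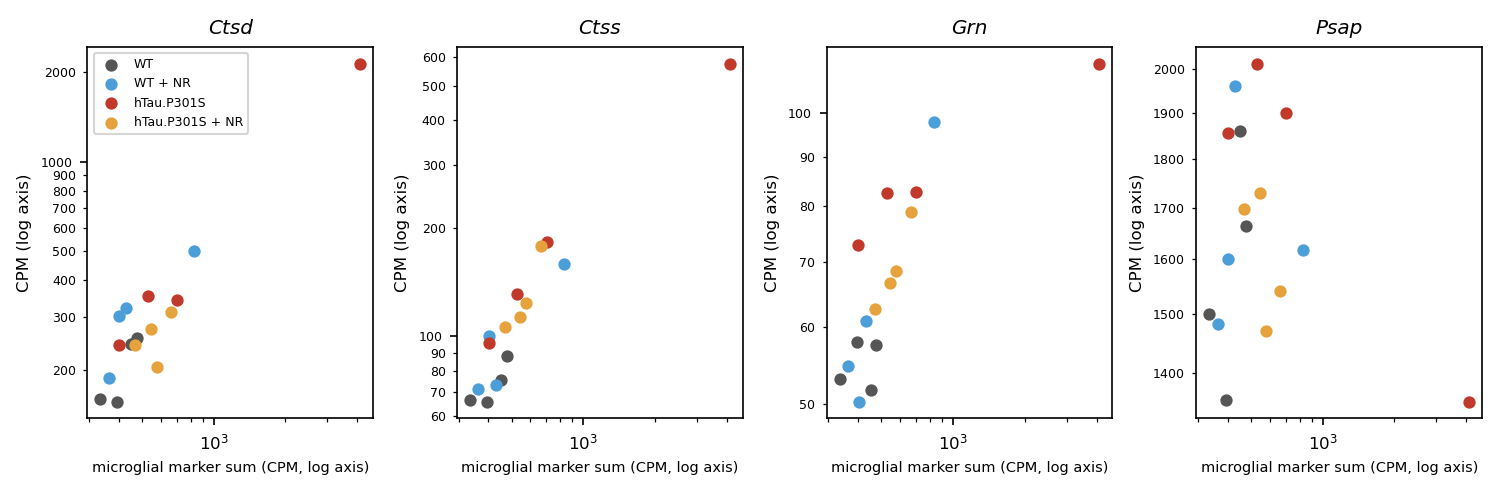
CPM of Ctsd, Ctss, Grn and Psap against the summed CPM of 10 microglial markers in each of the 16 mice, on log axes and coloured by group. hTau.P301S replicate 1 lies alone on the right at 4111 CPM, with the highest Ctsd, Ctss and Grn and the lowest Psap.

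NR in hTau.P301S mice addresses whether the supplement changes the transcriptome of the transgenic hippocampus. This comparison shares its 4 hTau.P301S mice with the one against WT, so a mouse that is high in that group pushes the fold changes apart in opposite directions. None of the 38 genes was called by edgeR, with a lowest adjusted p of 0.367, and 1 of 16386 genes was called (0.00610%). The log2 fold change was above 0 for 7 of the 38 genes (47.6% of all genes), and the median was -0.35 against -0.03. At an unadjusted p under 0.05, 6 members were lower with NR and 0 higher, against 7.01% and 5.86% of all genes. For 6 members, Ctsa, Ctsf, Gla, Naglu, Neu1 and Smpd1, every NR-treated mouse lay below every untreated one (5.54% of all genes), and 0 showed the reverse (6.33%). Leaving out hTau.P301S replicate 1 brought the median to -0.10, with 15 members above 0 (50.0% of all genes). Then 6 members were lower at an unadjusted p under 0.05 (7.40% of all genes), and Hexa was higher (10.6%). Without overlap, 8 were lower (8.86% of all genes) and 1 higher (8.22%). The count of 6 rested on single mice as well. It was 0 without hTau.P301S + NR replicate 1, 2 or 3, 2 without replicate 4 of that group, and 10 without hTau.P301S replicate 4. The 10 microglial markers had a median log2 fold change of -1.79, and of 0.02 without hTau.P301S replicate 1, and 1 of 10 and 5 of 10 were above 0. Of the 10 neuronal markers, 3 were higher and 4 lower at an unadjusted p under 0.05 without that mouse. Their part in the lysosomal values was not tested.

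Naglu, Neu1 and Ctsf had the smallest p-values in this comparison. Naglu, which removes N-acetylglucosamine from heparan sulfate, was at 37.5, 16.8, 15.6 and 13.9 CPM in hTau.P301S mice. With NR all 4 mice lay at 10.9 to 12.2 CPM, within the WT range of 10.2 to 16.6. The difference was -0.85 on the log2 scale (SE 0.33, edgeR adjusted p = 0.367) and -0.39 without replicate 1 (adjusted p = 0.180). Neu1 was at 48.0, 50.3, 47.5 and 51.2 CPM with NR, within the WT range. Its log2 fold change was -0.53 (SE 0.21, edgeR adjusted p = 0.367) and -0.28 without replicate 1. Ctsf, a cysteine cathepsin whose loss causes an adult neuronal ceroid lipofuscinosis, was at 122, 60.4, 67.3 and 57.3 CPM without and 44.1, 54.0, 39.4 and 56.5 CPM with NR. Its groups were separated by less than 1 CPM, with a log2 fold change of -0.67 (SE 0.28, edgeR adjusted p = 0.367) and -0.34 without replicate 1.

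Ctsa was at 106, 92.0, 94.7 and 95.7 CPM with NR, and Gla at 11.8 to 13.3 CPM, each below all 4 untreated hTau.P301S mice. For Gla the log2 fold change was -0.33 (SE 0.15, edgeR adjusted p = 0.367) and -0.34 without replicate 1. Ctsd was at 313, 243, 204 and 274 CPM with NR. Its log2 fold change of -1.60 (SE 0.69, edgeR adjusted p = 0.367) was -0.27 without replicate 1, and the groups overlapped. Ctss was at 178, 106, 124 and 113 CPM with NR, above every WT mouse, and differed from the other 3 hTau.P301S mice by a log2 fold change of -0.06. Ppt1 at 132, 123, 119 and 115 CPM and Grn at 78.9, 62.7, 68.6 and 66.6 CPM were likewise above every WT mouse with NR, and overlapped with untreated hTau.P301S mice. Lamp1 was at 420, 344, 354 and 357 CPM with NR, and Psap at 1542, 1699, 1472 and 1730 CPM. Atp6v0d1 was at 193, 206, 203 and 215 CPM, and Tfeb at 12.6, 11.7, 8.12 and 12.2 CPM.

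All 5 pump subunits were below 0 in this comparison, with a median of -0.55, and of -0.29 without replicate 1. Atp6v1a, low in that mouse, differed more without it. Its log2 fold change was -0.19 with it and -0.42 without it, with an unadjusted p of 0.00519 and an edgeR adjusted p of 0.128. With NR it was at 523 to 648 CPM. Atp6v0c, the proteolipid of the rotating ring, spread widely with NR, at 85.5 to 205 CPM.

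**Figure D5:**
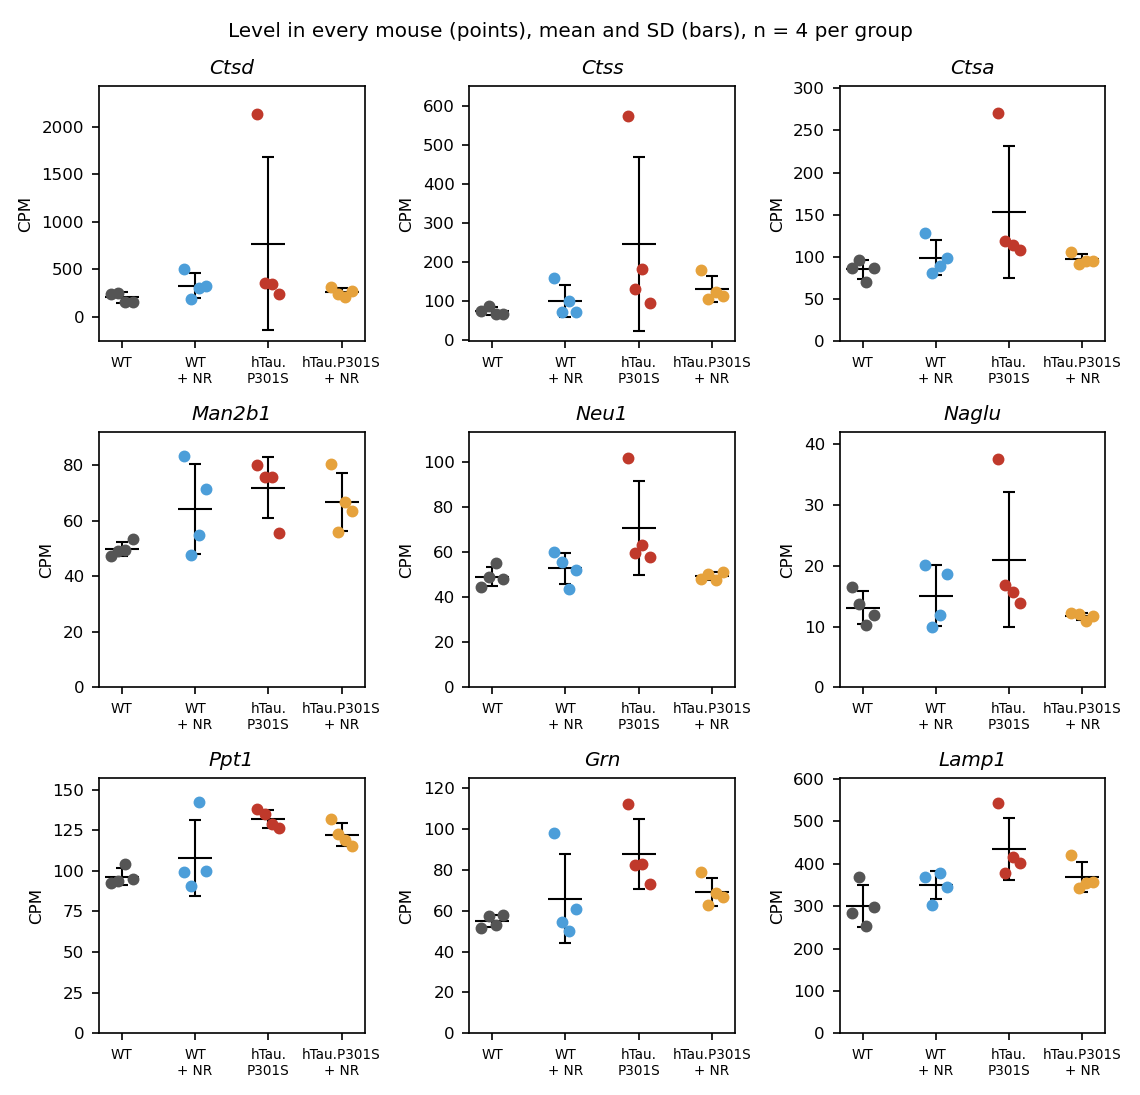
CPM of 9 of the genes in every mouse (points, 4 per group), with the mean and SD as bars. The hTau.P301S + NR mice lie above all WT mice for Ppt1 and Grn and within the WT range for Neu1 and Naglu, and hTau.P301S replicate 1 stretches the axis for Ctsd (2135 CPM) and Ctss (575 CPM).

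NR in WT mice was tested in the 8 mice without the transgene. None of the 38 genes was called, and no gene of 16714 was (0.00%). The log2 fold change was above 0 for 32 members (51.1% of all genes) with a median of 0.15 against 0.00. Ctsd alone had an unadjusted p under 0.05, against 0.371% of all genes higher. It was at 500, 188, 303 and 323 CPM with NR, with a log2 fold change of 0.70 (SE 0.30, unadjusted p = 0.0451, edgeR adjusted p = 0.9999), and the groups overlapped, as they did for all 38 genes (0.365% of all genes were higher and 0.389% lower without overlap). Man2b1 and Ctss followed, at 83.4, 47.6, 55.0 and 71.7 CPM and at 159, 71.5, 100 and 73.1 CPM with NR, with log2 fold changes of 0.38 (SE 0.17) and 0.46 (SE 0.26). In all 3 genes replicate 1, the mouse with the highest microglial, astrocyte and oligodendrocyte sums of this group, was the highest. Without it no member had an unadjusted p under 0.05, nor did any without WT replicate 3 or 4 or WT + NR replicate 4, and there were 2 without WT replicate 2 and 3 without WT + NR replicate 2.

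The genotypes were also compared under NR. In hTau.P301S + NR relative to WT + NR mice no member was called (0.0540% of all genes were), 18 of 38 were above 0 (47.0%), and the median was -0.00. No member had an unadjusted p under 0.05, against 2.42% of all genes higher and 3.67% lower, and every member overlapped (1.62% of all genes were higher and 2.11% lower without overlap). Members at that level numbered 2 higher without WT + NR replicate 1, 2 higher and 1 lower without WT + NR replicate 3, and 3 lower without WT + NR replicate 2. The log2 fold changes ran from -0.37 for Naglu (SE 0.23, edgeR adjusted p = 0.782) to 0.37 for Ctss (SE 0.27, edgeR adjusted p = 0.802). Npc1 was at 84.2, 78.2, 79.9 and 81.4 CPM without and 106, 82.1, 84.8 and 89.0 CPM with the transgene, which differed by 0.16 on the log2 scale (SE 0.10, edgeR adjusted p = 0.782). These p-values do not show that the genotypes are alike.

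Over both treatments, the genotype term in the 16 mice called no member, against 0.120% of all genes, with a lowest adjusted p of 0.473. At an unadjusted p under 0.05, 8 members were higher in mice with the transgene and 0 lower, against 3.36% and 4.39% of all genes. The log2 fold change was above 0 for 36 members (51.6% of all genes), and all overlapped between genotypes (0.154% of all genes were higher and 0.0399% lower without overlap). The 8 were Ppt1, Ctss, Lamp1, Gla, Grn, Ctsb, Atp6v0d1 and Atp6v1b2. Without hTau.P301S replicate 1 the same 8 genes passed that level (5.43% of all genes higher) and 0 were lower (7.87%), 26 members were above 0 (45.4%), and the median was 0.09 in place of 0.23. The count was 4 without WT replicate 1 or 3 and 5 without WT replicate 4. Ppt1 had the smallest p, with a log2 fold change of 0.32 (SE 0.10, edgeR adjusted p = 0.473), or 0.29 without replicate 1. Of the 8 mice with the transgene all lay at 115 CPM or more, and of the 8 without it only WT + NR replicate 3, at 143 CPM, did so.

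Whether NR acted differently by genotype was tested as an interaction. No member passed an adjusted p of 0.05 (0.00% of 17555 genes did), and the lowest was 0.558. At an unadjusted p under 0.05, 7 members had a lower effect of NR in hTau.P301S mice, against 4.63% of all genes, and 0 a higher one (3.29%). They were Ctsd (-2.26, SE 0.78), Neu1 (-0.62, SE 0.24), Ctsa (-0.88, SE 0.36), Naglu (-1.04, SE 0.43), Grn (-0.60, SE 0.27), Ctss (-1.37, SE 0.63) and Gla (-0.39, SE 0.18) on the log2 scale. Without hTau.P301S replicate 1, 5 members did so (3.35% of all genes), Neu1, Atp6v1a, Gla, Ctsd and Ctsa, with log2 values of -0.38, -0.60, -0.41, -0.96 and -0.44, and Naglu, Grn and Ctss came to -0.59, -0.45 and -0.51. The count of 7 was 3 without WT replicate 3 or WT + NR replicate 1, 4 without WT replicate 4 or hTau.P301S + NR replicate 2 or 3, and 14 without hTau.P301S replicate 4. The median over the 38 genes was -0.45 with that mouse and -0.24 without it.

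The rest of the pathway was followed in 75 other lysosomal genes, taken as whole lists, of which 72 were tested between hTau.P301S and WT mice. None was called, 8 were higher and 1 was lower at an unadjusted p under 0.05 (3.41% and 3.73% of all genes), and their median log2 fold change was 0.26, or 0.13 without hTau.P301S replicate 1. Galns, a sulfatase of keratan sulfate breakdown, was at 7.53 ± 1.45 CPM in WT and 12.8 ± 1.86 CPM in hTau.P301S mice (SD, n = 4 each), with no overlap and a log2 fold change of 0.77 (SE 0.22, edgeR adjusted p = 0.598) that was 0.79 without replicate 1. Cd68, a macrophage and microglial LAMP relative, was at 7.83 ± 1.91 and 25.1 ± 23.2 CPM and overlapped, with a log2 fold change of 1.69 that was 0.79 without replicate 1. Atp6v0e2, a small membrane-sector subunit with brain-rich expression, was at 317 ± 44.7 and 477 ± 109 CPM, with a log2 fold change of 0.60, or 0.43 without replicate 1. Lamtor4, of the complex that recruits mTORC1 to lysosomes, had a log2 fold change of 1.61 (SE 0.87) that came to -0.33 without replicate 1. For NR in hTau.P301S mice 7 of 71 were lower and 0 higher at an unadjusted p under 0.05 (7.01% and 5.86% of all genes). Hgsnat, which acetylates heparan sulfate in the lysosomal membrane, was at 76.7 ± 10.8 CPM without and 56.2 ± 3.87 CPM with NR, with no overlap and a log2 fold change of -0.46 (SE 0.16, edgeR adjusted p = 0.367), or -0.36 without replicate 1. Laptm4b and Atp6v0e2 did not overlap either, with log2 fold changes of -0.47 (SE 0.19) and -0.55 (SE 0.21) that were -0.26 and -0.37 without replicate 1.

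Markers of neighbouring tissue differed between single mice, and Npc2, Ctsl and Gaa are given beside them. Choroid plexus marker sums were 2482 to 9911 CPM in 6 mice, WT replicates 1 and 2, WT + NR replicates 3 and 4, and replicate 2 of each hTau group, and at most 447 CPM in the other 10. Npc2, which hands cholesterol to NPC1, was at 80.1 to 111 CPM in those 6 mice and at 47.4 to 89.8 CPM in the other 9 mice without hTau.P301S replicate 1. The value of 89.8 CPM was that of WT + NR replicate 1, with a choroid plexus sum of 71.5 CPM. Ctsl was at 99.0 to 125 CPM in the same 6 mice and at 57.5 to 97.7 CPM in the same other 9. Gaa was at 784 CPM in WT replicate 2 and 776 CPM in WT + NR replicate 3, and at 336 to 592 CPM in the other 14 mice. Those 2 mice had hippocampal neuron marker sums of 483 and 422 CPM and striatal marker sums of 2409 and 486 CPM. hTau.P301S + NR replicate 4 had sums of 383 and 890 CPM and Gaa at 585 CPM, and the other 13 mice had hippocampal sums of 694 to 1168 CPM and striatal sums of 158 to 310 CPM. The part of these markers in the values of Npc2, Ctsl, Gaa and the other members was not tested.

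hTau.P301S replicate 1 itself was not simply high in every lysosomal gene. Of the 38 genes, 23 were above and 6 below all other 15 mice, and 9 lay among them, while of all 17555 genes 31.8% were above and 35.1% below. The ratio to the mean of the other 3 hTau.P301S mice was 7.96 for Ctsh, 6.81 for Ctsd, 6.49 for Ctsz and 4.75 for Hexa, and it was at least 2 for 15 genes. It was lowest for Atp6v1a, at 0.398. The 6 genes below the others were Tpp1, Galc, Psap, Scarb2, Npc1 and Atp6v1a, with a median length of 6164.5 bases against 3474 bases for the 23 above.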

How the data were processed

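Hippocampal RNA of 16 mice was made into NEBNext Ultra libraries and sequenced. The study's methods state that polyadenylated RNA was first enriched with oligo(dT) beads. Reads were checked with FastQC and trimmed with Trim Galore (submitters' processing notes). By the study's methods they were aligned with STAR to mm10 and quantified with RSEM and the UCSC annotation, and versions and the use of strand are not given in the sources used here. The authors deposited raw whole-number counts per gene, with the gene length in bases as another column of the deposited file, for 54532 genes. Totals ran from 16490261 to 21915362 per mouse (median 18415134).

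Here counts were tested with edgeR 4.0.16 (R 4.3.3; filterByExpr, TMM scaling, quasi-likelihood test, Benjamini-Hochberg adjustment over all genes tested). Pairwise fits used the 8 mice compared, and the genotype and interaction terms all 16. A gene was called at an adjusted p under 0.05 and, except for the interaction, an absolute log2 fold change above 0.5. CPM are counts scaled to a common library size (edgeR's cpm with TMM factors). With 4 mice against 4, an exact permutation test cannot go below 0.0286. The sources do not describe how the mice were bred or housed in groups. The edgeR p-values weigh a difference against a spread between mice that is estimated with information from all genes. They treat each mouse as independent.

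Groups come from the labels. The 38 genes, the other lists and the markers were chosen with earlier results of these data known, and the striatal markers after seeing values. Values are given mouse by mouse or by range, not always in all 4 groups, for members chosen by rule. Other members are given by range or fold change. The rule took members called in any comparison and the 3 with the smallest p in each of 6 comparisons. It also took the member with the highest mean CPM per kb over all 16 mice in each role. hTau.P301S replicate 1 enters that mean, and in WT mice Atp6v1b2 and Ctsb, not Atp6v0d1 and Ctsd, were highest in their roles. Other pathway genes are named where they were called or had the smallest p of their list. Beyond that rule, Gla, Ctsb, Smpd1, Npc2 and further members are named by range because their groups did not overlap or they differed with replicate 1. The alternatives were DESeq2 1.42.0, single fits over all groups, other filters, a length trend removed, a replicate block and leaving out each mouse. The fits were tested on simulated data. limma 3.58.1 was loaded with edgeR. Tables were made with Python 3.11.15, numpy 2.4.6 and pandas 2.3.3.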

Additional observations from a re-analysis of the deposited data

Results flagged for a closer look

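Single mice far from the rest of their group were looked for in 152 sets of 4 mice (38 genes in 4 groups), and 20 stood out by Dixon's test, where chance alone gives about 1 in 20, or 7.6. Of the 20, 17 were hTau.P301S replicate 1, the library with 14.4% mitochondrial counts and a microglial marker sum of 4111 CPM. It was far above its group for the proteases Ctsa (270 CPM), Ctsb (1003), Ctsd (2135), Ctsf (122), Ctsh (108) and Ctsz (343). The glycosidases were Hexa (229 CPM), Glb1 (45.7), Gusb (71.4), Naglu (37.5) and Neu1 (102). The others were Smpd1 (249 CPM), Npc2 (337), Cln3 (30.1), Mcoln1 (86.8), Atp6v0d1 (655) and Tfeb (29.2). The part of microglial content and RNA quality in these values was not tested.

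Gaa stood out in WT replicate 2 (784 CPM) and in WT + NR replicate 3 (776 CPM). These mice had neuronal marker sums of 6135 and 5985 CPM, the lowest outside hTau.P301S replicate 1. Lamp2 was at 123 CPM in hTau.P301S + NR replicate 1, against 102 to 105 CPM in the other 3 mice of its group.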

How the results depend on the processing

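No lysosomal gene was called in any of the 6 comparisons under any edgeR alternative. Genes with a log2 fold change above 0 between hTau.P301S and WT mice numbered 35, and 29 without hTau.P301S replicate 1, where Tfeb, Hexa and Ctsh, among others, came to lie below 0. With DESeq2 and all 4 groups in one fit, 3 were called between hTau.P301S and WT mice, and 0 without hTau.P301S replicate 1, a fit added after seeing the data. Counts at an unadjusted p under 0.05 moved more. The 10 members higher in hTau.P301S mice became 21 with DESeq2 and 20 with edgeR over all groups, 3 with a replicate block, and 4 to 13 when 1 mouse was left out. The 6 members lower with NR in hTau.P301S mice became 14 and 12 over all groups, 3 with at least 10 counts in every mouse, 0 with the replicate block and 0 to 10 with 1 mouse left out, and members higher numbered 0 to 1. For NR in WT mice the 1 member became 0 with DESeq2, edgeR over all groups and the block, and 0 to 3 with 1 mouse left out. Between hTau.P301S + NR and WT + NR mice the block gave 1 higher, and leaving out 1 mouse 0 to 2 higher and 0 to 3 lower. The 8 members higher by genotype became 5 with no filter, 6 with the replicate block and 4 to 10 with 1 mouse left out. The 7 members of the interaction became 12 with the length trend removed, 5 with the block and 3 to 14 with 1 mouse left out. The cause of these moves was not tested. Same-numbered mice correlated between -0.537 and 0.287, over 0.1 in 5 of 16 pairs. Such correlations cannot exclude a shared litter, cage or batch, so whether the numbers pair the mice is not known. Over all genes, the calls between hTau.P301S and WT mice numbered 1 with edgeR and 492 with DESeq2 over all groups, or 444 without hTau.P301S replicate 1. DESeq2 gave no adjusted p for Hexa.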
